A study of Mus musculus with 2 samples.

Results

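The cells described here are leukocytes of mouse brown adipose tissue that carried transcripts of Ecm1, Fcrls or Cd226 together with Fn1. A cell was taken when at least 200 genes were detected, mitochondrial genes held at most 10% of its unique molecular identifiers (UMIs, each standing for 1 captured RNA molecule), the summed UMIs of Ecm1, Fcrls and Cd226 were at least 2 and those of Fn1 at least 2. It also had to hold at most 1 UMI of Folr2, Lyve1 and Cd209f together, which mark resident macrophages, at most 3 of Gpnmb and Trem2 together, which mark lipid-associated macrophages, and 0 of Cd3d, Cd3e, Cd3g and Cd79a, which mark T and B cells. Of 4295 cells that passed the limits on genes and mitochondrial UMIs, 230 met this rule, 54 of 2279 in the control library and 176 of 2016 in the AdipoΔ/Δ library. All of these thresholds are on measured UMIs, so the genes in them are a description of the choice and not a finding.

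Both libraries came from C57Bl/6 males, labelled as 16-week-old, of the genotype AdipoQ-CreERT2 ATGLfl/fl, in which a tamoxifen-dependent Cre recombinase is driven by the adiponectin promoter and both alleles of Pnpla2, the gene of adipose triglyceride lipase (ATGL), are floxed. The study's own text gives a younger age, so the age is uncertain. Control mice received vehicle. AdipoΔ/Δ mice received 200 uL of tamoxifen at 10 mg/ml intraperitoneally every 2 days for 1 week and then rested for 2 weeks, a regimen meant to remove ATGL from adipocytes. The adiponectin promoter acts in adipocytes of every fat depot and not in leukocytes. Tamoxifen itself was given to the AdipoΔ/Δ mice only, and its part cannot be told apart from that of the deletion. Viable CD45+ cells, CD45 being the common leukocyte surface marker, were sorted and sequenced with a droplet 3′ method, with 1 library per condition and the number of mice behind each library not given. There is therefore no replicate error and no test. The intervals below are exact 95% intervals that cover counting error only, namely Poisson for a level, Clopper-Pearson for a share and conditional binomial for a ratio.

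Fibronectin, encoded by Fn1, is a scaffold glycoprotein of the extracellular matrix to which integrins bind, and extracellular matrix protein 1 (Ecm1) is a secreted glycoprotein that binds other matrix components. Fcrls is an Fc receptor-like molecule of myeloid cells in mice, and CD226 is an adhesion receptor of lymphocytes and some myeloid cells. In the serous cavities, CD226 together with Retnla (RELMα, a secreted protein induced by interleukin 4) and MHC class II marks macrophages that derive from CCR2+ blood monocytes and pass through a stage resembling dendritic cells. Brown adipose tissue burns lipid to make heat, and ATGL supplies fatty acids from its lipid droplets.

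The median cell held 4645.5 UMIs in the control library and 6859.5 in the AdipoΔ/Δ library, with ranges of 1332 to 17647 and of 635 to 41603. The summed UMIs were 355438 and 1534504. The kept cells of the whole libraries had medians of 3678 and 3942 UMIs, so the difference in depth between libraries was larger in these cells than in all cells. The nuclear transcript Gm42418, which overlaps a ribosomal RNA repeat, took 16.4% of the UMIs of the cells in control and 10.0% in AdipoΔ/Δ, against 9.90% and 6.35% in all kept cells. Both libraries shared 4 barcodes, 0 of them in the cells described. Levels are given as CPM, the UMIs of a gene per 1000000 UMIs of the cells added up.

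The cells took 2.37% (1.78 to 3.08) of kept control cells and 8.73% (7.53 to 10.0) of kept AdipoΔ/Δ cells, a ratio of 3.68 (2.70 to 5.10). The ratio was 3.80 over cells with Csf1r and without lymphocyte genes, where 32 of 754 and 133 of 825 cells met the rule. It was 4.08 after every cell was thinned to 3000 UMIs, and 5.55 when at least 6 UMIs of Ecm1, Fcrls and Cd226 were asked for. These are shares of a CD45+ sort and depend on how many other leukocytes were captured, since Ly6C high monocytes took 11.8% of control and 5.75% of AdipoΔ/Δ cells. Lymphoid cells took 26.1% and 16.0%. The rise was not particular to the cells described. Gpnmb/Trem2 cells, defined below, took 0.658% and 2.53%, a ratio of 3.84 (2.13 to 7.36). Resident macrophages took 0.483% and 0.992%, a ratio of 2.06 (0.939 to 4.75).

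The threshold of 2 UMIs fell among many cells. At exactly 2 UMIs of Ecm1, Fcrls and Cd226 there were 14 control and 28 AdipoΔ/Δ cells inside, and 29 and 51 cells with 1 UMI that met every other limit stood just outside. On Fn1, 2 and 6 cells were at 2 UMIs, and 5 and 19 stood outside at 1 UMI. On Folr2, Lyve1 and Cd209f, 1 control and 14 AdipoΔ/Δ cells were at the limit of 1, and 0 and 3 had 2 UMIs. On Gpnmb and Trem2, 0 and 3 cells were at 3 UMIs and 0 and 1 at 4, while 0 control and 8 AdipoΔ/Δ cells were left out for a single lymphocyte UMI. Fcrls was the most frequent of the 3 entry genes, with a UMI in 46 of 54 control and 164 of 176 AdipoΔ/Δ cells. Ecm1 had one in 40 and 132 cells and Cd226 in 28 and 99. All 3 were present in 20 and 72 cells, whereas 2 and 1 cells entered through Cd226 alone.

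**Figure D1:**
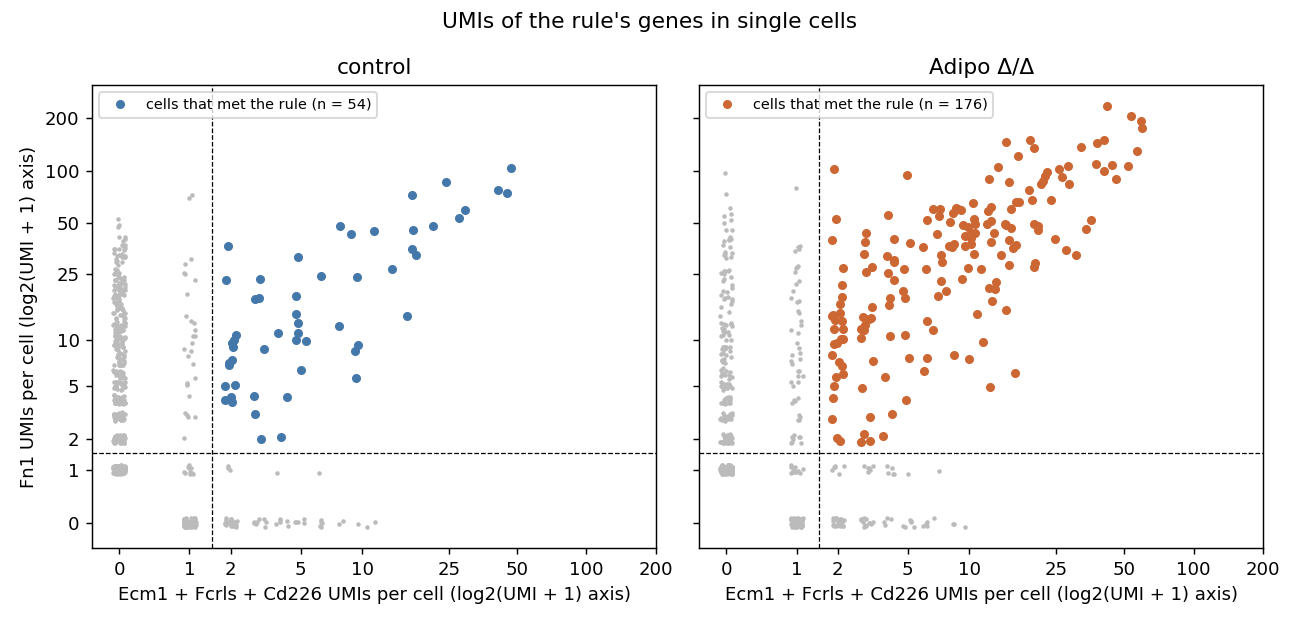
UMIs of Ecm1, Fcrls and Cd226 together (x axis) against UMIs of Fn1 (y axis) in single cells of each library that met the other limits of the rule, both on a log2(UMI + 1) scale with a small random shift, and with cells that have neither left out. Coloured points are the 54 control and 176 AdipoΔ/Δ cells that met the rule, grey points the cells that did not, and dashed lines the thresholds. The sums of the coloured points run from 2 UMIs to above 40, with some values between held by no cell.

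The levels of the rule genes are conditioned by the rule and are given as a description. Fcrls (ENSMUSG00000015852; GRCm38 chr3:87250758-87263738, minus strand) stood at 782 CPM in control and 794 in AdipoΔ/Δ, a ratio of 1.02 (0.891 to 1.16). Ecm1 (ENSMUSG00000028108; chr3:95734147-95739569, minus strand) stood at 495 and 423 CPM, and Cd226 at 163 and 178. Fn1 (ENSMUSG00000026193; chr1:71585520-71653200, minus strand) was at 3632 and 5059 CPM, a ratio of 1.39 (1.31 to 1.48). In single cells, Fn1 ran from 2 to 102 UMIs with a median of 12.5 in control, and from 2 to 222 with a median of 33.0 in AdipoΔ/Δ, and these ranges overlapped over most of their length.

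Retnla was the most abundant of the marker genes and took no part in the rule. Its level was 10956 CPM in control and 13079 in AdipoΔ/Δ, a ratio of 1.19 (1.15 to 1.24), with single cells from 0 to 420 UMIs (median 43.5) and from 0 to 1530 (median 47.5). A UMI was found in 46 of 54 and 168 of 176 cells, or 83.7% and 88.4% of cells thinned to 3000 UMIs. Lymphoid cells, which should lack the gene, showed a UMI in 8.52% and 25% at the same depth, which is read as background in each library. The cells held 66.4% (65.1 to 67.6) of all Retnla UMIs of the kept control cells and 64.7% (64.1 to 65.2) of those of the AdipoΔ/Δ cells. For the genes of the rule the same share was 66.9% in each library for Ecm1 and 74.1% and 69.1% for Fcrls, but 21.3% and 62.7% for Fn1, which Ly6C high monocytes also carried.

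Sequences upstream of genes on which the results turn are shown for Retnla and Lyz1, abundant in these cells in both libraries, and for Mmp12, which was found in the AdipoΔ/Δ cells alone. Each runs 5′ to 3′ on the gene's strand over bases 250 to 61 before the start in RefSeq (GRCm38.p6). This stretch lies outside the annotated span of the gene itself, and other genes were not checked. The bases after the RefSeq start occur in an annotated transcript for Lyz1 and Mmp12 but not for Retnla, so the Retnla start is less certain. Capitals mark matches on either strand to GAGGAAG, a core bound by the myeloid factor PU.1, and to the STAT6-type motif.
Retnla (chr16:48842359-48842548, plus strand): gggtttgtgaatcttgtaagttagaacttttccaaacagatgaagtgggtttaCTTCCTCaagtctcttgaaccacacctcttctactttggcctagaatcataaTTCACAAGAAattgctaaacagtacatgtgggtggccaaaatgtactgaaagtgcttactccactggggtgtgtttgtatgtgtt
Lyz1 (chr10:117292929-117293118, minus strand): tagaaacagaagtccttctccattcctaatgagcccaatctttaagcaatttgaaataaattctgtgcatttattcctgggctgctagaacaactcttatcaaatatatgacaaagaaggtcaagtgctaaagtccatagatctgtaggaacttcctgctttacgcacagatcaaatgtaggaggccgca
Mmp12 (chr9:7344147-7344336, plus strand): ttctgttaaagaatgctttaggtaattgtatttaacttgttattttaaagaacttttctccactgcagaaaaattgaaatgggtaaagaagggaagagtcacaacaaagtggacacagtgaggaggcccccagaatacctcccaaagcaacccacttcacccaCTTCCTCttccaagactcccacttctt
The Retnla window held 1 match to each motif, the Mmp12 window 1 match to GAGGAAG, and the Lyz1 window neither. Of 32851 RefSeq promoter windows of the same 190 bases, 7.71% held GAGGAAG and 4.54% held the STAT6-type motif. A further motif, TGANTCA of AP-1 factors, was in none of these 3 windows and in 5.22% of all. The window of Ecm1 was examined too, is not shown, and held 0 matches to any of these motifs. The matches are descriptions of letters and say nothing of binding.

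The cells were set beside 3 other myeloid sets, each with at least 1 UMI of Csf1r, at most 1 of Ecm1, Fcrls and Cd226 together, at most 10 of S100a8 and S100a9 together and 0 of the lymphocyte genes. Resident macrophages had at least 2 UMIs of Folr2, Lyve1 and Cd209f, Gpnmb/Trem2 cells at least 4 of Gpnmb and Trem2, and Ly6C high monocytes at least 3 of Ly6c2. The lymphoid set had at least 2 UMIs of the lymphocyte genes and 0 of Csf1r.

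The label of these cells calls them macrophages, and several defining macrophage genes were low. Fcgr1, the high-affinity Fc receptor, had 5 UMIs in the control cells and 25 in the AdipoΔ/Δ cells, or 14.1 and 16.3 CPM, against 66.9 and 149 in Ly6C high monocytes of the same libraries. Mertk, a receptor for dying cells, had 2 and 12 UMIs. Either gene was found in 5 of 54 and 18 of 176 cells. Cd68, a lysosomal glycoprotein, was at 138 and 184 CPM and at 224 and 271 in the monocytes. Csf1r, the receptor for the macrophage growth factor CSF1, was at 321 and 410 CPM, and it is not compared because the other sets were chosen with it. Adgre1, which encodes F4/80, was at 104 and 117 CPM against 96.6 and 119 in the monocytes and 524 and 443 in resident macrophages. C1qa, a complement component of mature macrophages, stood at 160 and 242 CPM, above the monocytes at 2.36 and 22.2 and far below the resident macrophages at 4194 and 3059. It was found in 10 of 54 and 39 of 176 cells.

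Genes of other myeloid cells gave a mixed picture. The monocyte chemokine receptor Ccr2 was at 1170 CPM in control and 987 in AdipoΔ/Δ, close to the 1329 and 1240 of Ly6C high monocytes, whereas Ly6c2 was at 132 and 118 CPM against 1320 and 1984 in these monocytes, which were chosen with it. MHC class II genes were high, with H2-Ab1 at 5275 and 6004 CPM against 214 and 986 in the monocytes. The dendritic cell genes Flt3 and Zbtb46 together had a UMI in 4 of 54 and 7 of 176 cells. Mrc1, the mannose receptor, was at 324 and 326 CPM against 8.96 and 29.7 in the monocytes and 2259 and 1992 in the resident macrophages. Since Fcgr1 and Mertk went against the label, the cells are called Ecm1/Fcrls cells in what follows.

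**Figure D2:**
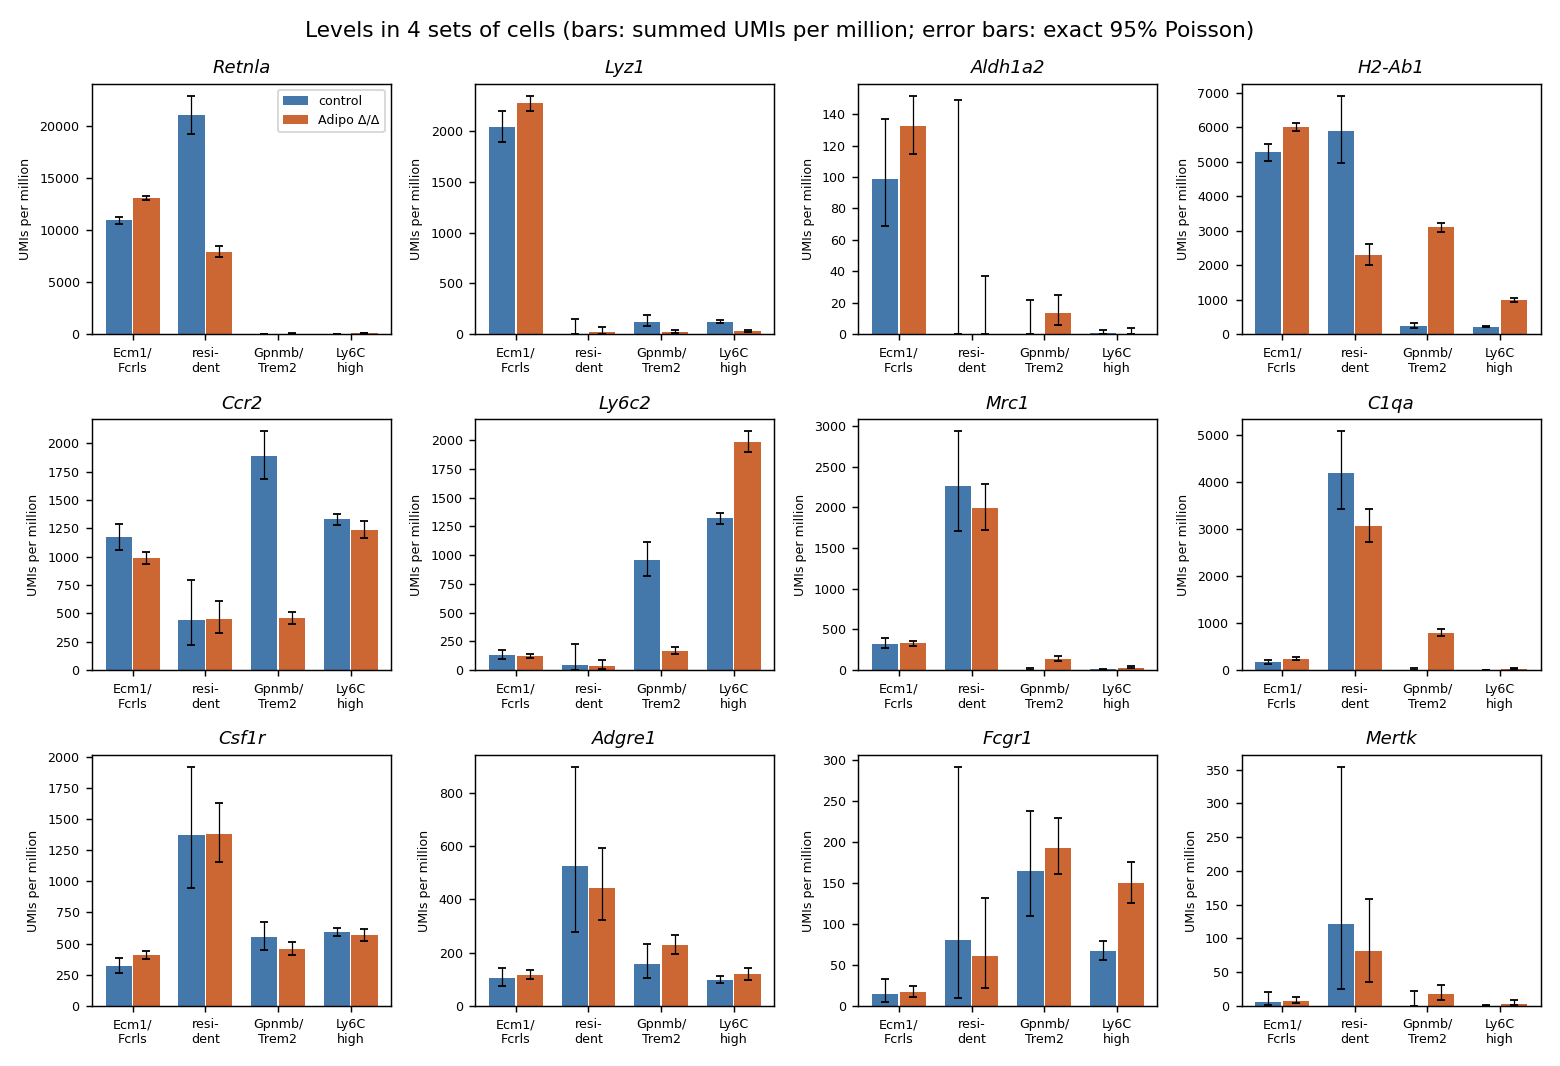
Levels of 12 genes (y axis, CPM; each panel starts at 0) in the Ecm1/Fcrls cells and in 3 other myeloid sets of each library, namely 11 control and 20 AdipoΔ/Δ resident macrophages, 15 and 51 Gpnmb/Trem2 cells, and 270 and 116 Ly6C high monocytes. Error bars are exact 95% Poisson intervals. Lyz1 and Aldh1a2 are high in the Ecm1/Fcrls cells of both libraries, whereas Fcgr1 and Mertk are low in them. C1qa lies above the Ly6C high monocytes and far below the resident macrophages, and Retnla is shared with the resident macrophages.

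Ratios against the other sets describe how the cells were chosen and were not tested. The 15 Gpnmb/Trem2 cells of the control library carried Ly6c2 at 959 CPM and C1qa at 5.88, and are named by their rule only. Of 7438 genes with enough UMIs, 252 were at least 2-fold higher in the Ecm1/Fcrls cells than in the 3 sets added up in both libraries, or 3.39%. The Ly6C high monocytes gave 2121186 UMIs to this sum in control, against 24795 and 170000 from the resident and Gpnmb/Trem2 sets, and 943865 in AdipoΔ/Δ, against 99377 and 678598, so the sum weighs the sets unequally and differs between libraries. Those with the largest ratios outside the rule were Hr, Cavin1, H2-DMb2, Egr3, Aldh1a2, Retnla, Palld, Gfra2, Il1rl1, Cd2, Lyz1 and Fgfr1.

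Lyz1, which encodes a lysozyme that digests bacterial walls, was at 2043 CPM in the control Ecm1/Fcrls cells and at 2277 in those of AdipoΔ/Δ, a ratio of 1.11 (1.03 to 1.21). It was at 124 and 28.6 CPM in Ly6C high monocytes and at 0 and 20.1 in resident macrophages. Single cells ranged from 0 to 216 UMIs in control and from 0 to 249 in AdipoΔ/Δ, with medians of 1.50 and 2.00, and 33 of 54 and 110 of 176 cells had any. The distribution was thus skewed in both libraries, with 3 control cells holding over 50% of the control UMIs. Its paralog Lyz2 was at 12810 and 13404 CPM, and 157 of 1209 windows of 55 bases in the Lyz1 transcript also occur in Lyz2, so the assignment of reads between them is uncertain. In the Ly6C high monocytes Lyz2 was at 27280 and 28237 CPM.

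Aldh1a2 encodes an enzyme that makes retinoic acid from retinal. Its level was 98.5 CPM in control and 132 in AdipoΔ/Δ, with a UMI in 18 of 54 and 88 of 176 cells, against 1 and 0 UMIs in all Ly6C high monocytes and 0 in the resident macrophages of both libraries. Hr, a transcriptional corepressor, was at 87.2 and 91.2 CPM and had 0 UMIs in each of the 3 sets in control. Il1rl1, the receptor for interleukin 33, was at 73.1 and 74.3 CPM, Cavin1, a coat protein of caveolae, at 113 and 156, and Palld, an actin-binding protein, at 30.9 and 61.9. Gfra2 and Fgfr1, which encode growth factor receptors, were at 132 and 97.8 and at 225 and 228 CPM, yet resident macrophages carried Fgfr1 at 282 and 171.

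H2-DMb2 and Cd2 were also carried by lymphocytes. H2-DMb2, a chain of the peptide-loading molecule H2-DM, was at 143 and 95.8 CPM against 142 and 59.0 in the lymphoid set. Its transcript shares 336 of 1429 such windows with H2-DMb1, and 13 of the last 500, at the 3′ end. The adhesion receptor Cd2 was at 101 and 152 CPM against 236 and 284 in the lymphoid set. Egr3, an early response transcription factor, rested on few cells, with 10 of its 15 control UMIs in 1 cell and 53 of its 96 AdipoΔ/Δ UMIs in another. Irf4, a factor of dendritic cells and alternatively activated macrophages, was at 118 and 112 CPM against 15.6 and 24.4 in the Ly6C high monocytes.

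Within the cells, Lyz1 and Retnla were found together. After thinning to 3000 UMIs, the 82 AdipoΔ/Δ cells with Lyz1 all had Retnla, at a mean of 59.7 UMIs, and 47 of the 64 without Lyz1 had it, at a mean of 19.3. In control the 21 cells with Lyz1 had a mean of 38.3 Retnla UMIs and the 22 without a mean of 30.6. Ecm1 was found in 70.7% of AdipoΔ/Δ cells with Lyz1 and 43.8% of those without, and in control in 14 of 21 and 11 of 22. Since Ecm1 is a gene of the rule, its shares are conditioned by the choice and are a description only.

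Between the libraries, 7134 genes had at least 20 UMIs over both together. Of these, 764 genes (10.7%) were at least 2-fold higher in AdipoΔ/Δ, and 170 genes (2.38%) were at most 0.5-fold, 13.1% in all. The median of all log2 ratios was 0.16, and genes are read against it. When libraries were scaled by the median ratio over genes the median was 0.01, with 566 genes higher and 281 lower. When Gm42418, AY036118 and Lars2 were left out of the totals it was 0.05, with 607 and 249. These are counts past a fold and not of tested genes. The counts of the gene lists below are to be read against the shares of 10.7% and 2.38%, and no list was tested against them. Among the alternatives, the count of higher genes ran from 261 to 1165.

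**Figure D3:**
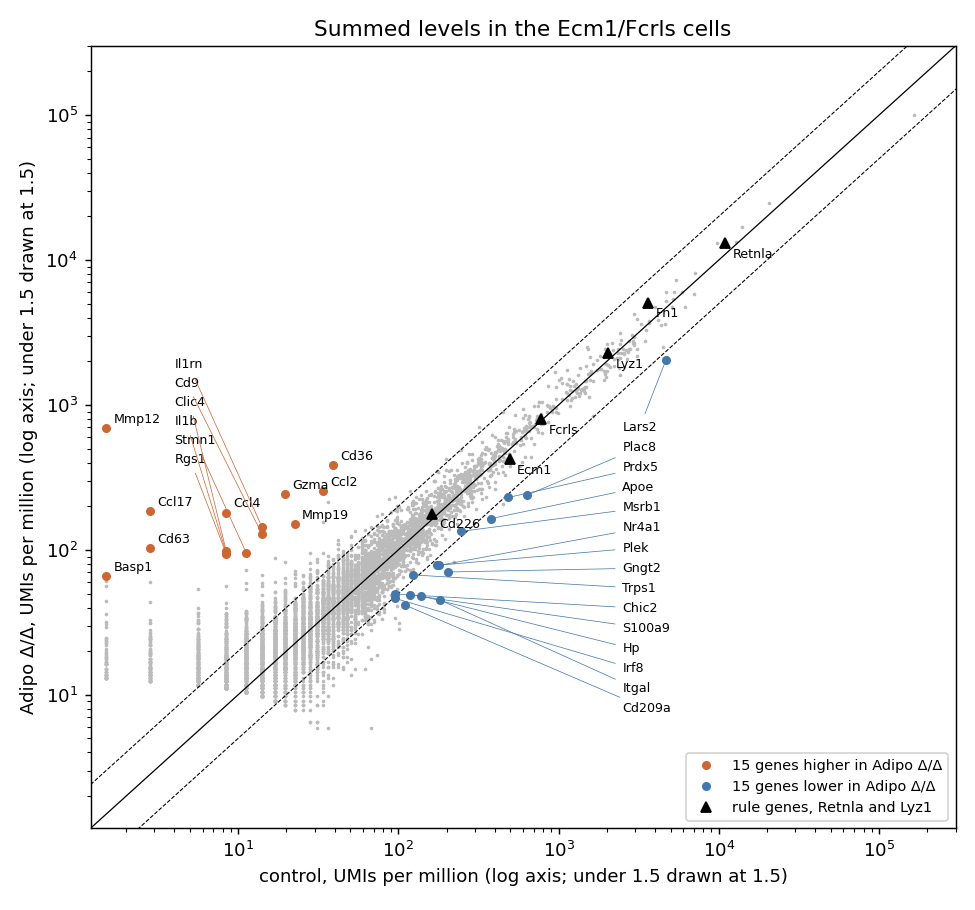
Level of 7134 genes in the Ecm1/Fcrls cells of the control library (x axis) and of the AdipoΔ/Δ library (y axis), in CPM on log axes, with values under 1.5 drawn at 1.5. The solid line marks equal levels and the dashed lines a 2-fold difference, and named points are the 15 genes with the largest ratio on each side among genes with at least 100 UMIs. Ecm1, Fcrls, Cd226, Fn1, Retnla and Lyz1 lie between the dashed lines, Mmp12 stands at 0 in control, and Itgal, at a ratio of 0.246, is the farthest below the line among the named genes.

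Of the genes named by their ratio, the matrix protease Mmp12 stood first. Mmp12 (ENSMUSG00000049723; chr9:7344381-7369499, plus strand), the macrophage metalloelastase that cleaves elastin, had 0 UMIs in the 54 control cells and 1064 in the AdipoΔ/Δ cells. The level there was 693 CPM, at least 82.2-fold higher when control is set at 3 UMIs, and the exact lower limit of the ratio was 66.7. It was found in 56 of 176 AdipoΔ/Δ cells, while 0 of 54 control cells, taken as at most 3 cells, allow a share of cells with a UMI of up to 5.56%. The highest cells held 305, 121 and 110 UMIs, and 3 cells held over 50% of the total. At 3000 UMIs per cell, 33 of 146 AdipoΔ/Δ cells (22.6%) and 0 of 43 control cells had a UMI, against 2.04% of AdipoΔ/Δ lymphoid cells. The gene was not confined to these cells in AdipoΔ/Δ, where they held 36.8% of its UMIs and the Gpnmb/Trem2 cells stood at 790 CPM, and the whole control library held 53 UMIs of it.

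Mmp19, another metalloproteinase, had 8 UMIs in 5 control cells and 230 in 49 AdipoΔ/Δ cells, or 22.5 and 150 CPM, a ratio of 6.66 (3.32 to 15.6). Its values ran from 0 to 3 UMIs per cell in control and from 0 to 54 in AdipoΔ/Δ. In the Gpnmb/Trem2 cells the ratio was 0.925 (0.493 to 1.86) and in the Ly6C high monocytes 0.809 (0.332 to 1.79), and the difference between sets was not tested. These were the 2 genes past 2-fold of the 8 proteases and plasminogen genes that passed the minimum, with a median log2 ratio of 0.49. Plaur, the urokinase receptor, was at 78.8 and 149 CPM, a ratio of 1.89 (1.27 to 2.90), and F13a1, a coagulation factor that cross-links fibrin, at 616 and 439, a ratio of 0.712 (0.610 to 0.833). Mmp2 and Mmp14 had 0 UMIs in the Ecm1/Fcrls cells of either library.

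Of 7 matrix proteins past the minimum, 1 was at least 2-fold higher and 0 lower, against 10.7% and 2.38% of all genes. The list holds the rule genes Fn1 and Ecm1, and its median log2 ratio of 0.48 is that of Fn1 itself, so the median is a description of the choice. The one was Ltbp3, which binds latent TGF-β, with 3 and 35 UMIs and a ratio of 2.70 (0.852 to 13.7). Lgals3, a galactose-binding lectin, was at 1035 and 1543 CPM, and Tgfbi, a TGF-β-induced adhesion protein, at 329 and 448. The collagen genes Col1a1, Col4a1 and Col14a1 had 0 UMIs in these cells of either library. Of 8 protease inhibitors, Serpinb6a and Serpinb9 were higher and Slpi was lower, the latter at 67.5 CPM in control and 5.87 in AdipoΔ/Δ, with its 24 control UMIs in 6 cells. Of 16 integrins and other matrix receptors, Cd36 was higher and Itgal and Lair1 were lower.

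Cd36 (ENSMUSG00000002944; chr5:17781690-17888801, minus strand), a scavenger receptor that takes up fatty acids and also binds thrombospondin, had 14 UMIs in the control cells and 588 in the AdipoΔ/Δ cells. The level was 39.4 and 383 CPM, a ratio of 9.73 (5.75 to 17.9). Single cells ran from 0 to 3 UMIs in control and from 0 to 54 in AdipoΔ/Δ, where the median was 1.00. A UMI was present in 20.4% of control and 58.0% of AdipoΔ/Δ cells, or 14.0% and 43.8% at 3000 UMIs, against 1.48% and 5.10% of lymphoid cells. In the other sets the ratio was 0.643 (0.425 to 0.992) in resident macrophages, 25.7 (13.9 to 53.7) in the Gpnmb/Trem2 cells and 9.49 (4.51 to 22.3) in Ly6C high monocytes, at lower levels of 4.24 and 40.3 CPM in the latter.

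Of 21 genes of lipid-associated macrophages past the minimum, 9 were at least 2-fold higher and 1 was lower, with a median log2 ratio of 0.96. The tetraspanins Cd9 and Cd63 had 5 and 198 UMIs and 1 and 157 UMIs, with ratios of 9.17 (3.87 to 28.6) and 36.4 (6.43 to 1445). The control value of Cd63 is 1 UMI, under the floor of 3, and its log2 ratio of 5.18 was 3.42 without the highest cell of each library and 2.19 at a sum of at least 6, both with control set at the floor. Plin2, a coat protein of lipid droplets, was at 87.2 and 224 CPM, a ratio of 2.57 (1.78 to 3.84), the fatty acid chaperone Fabp5 at 61.9 and 136, the acid lipase Lipa at 118 and 254, and the aspartic protease cathepsin D (Ctsd) at 321 and 699. Lpl, lipoprotein lipase, was already at 1497 CPM in control and stood at 2510 in AdipoΔ/Δ, a ratio of 1.68 (1.53 to 1.84). Apoe, the apolipoprotein of lipid export, was the gene on the lower side, at 377 and 164 CPM, and 45 of its 134 control UMIs were in 1 cell. Trem2 and Gpnmb, held down by the rule, had 3 and 29 and 0 and 3 UMIs, and Trem2 is one of the 9. Cd36 and Mmp12 are in the list as well.

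Over the 22 genes of lipid uptake, storage and efflux, 5 were higher and 6 lower, against 10.7% and 2.38% of all genes. Each side thus held a larger share than in all genes, and the median was 0.31 against 0.16. Those lower included Apoe, Apoc2, Msr1, Scarb1, Lipe and Nr1h3, those other than Apoe with 9 to 23 control UMIs. Of 19 genes of fatty acid oxidation 2 were higher and 0 lower (median 0.18), and of 18 glycolysis genes 2 were higher and 0 lower (median 0.35). Both are near the 10.7% higher and 2.38% lower of all genes. Pnpla2, the gene deleted in adipocytes, had 9 and 51 UMIs, a ratio of 1.31 (0.640 to 3.03), and with Adipoq at 0 UMIs in these cells of both libraries these sorted leukocytes cannot check the deletion. Of 11 cathepsins and legumain, 3 were higher, with a median of 0.57.

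The genes higher in AdipoΔ/Δ were partly found in the same cells. Of 33 AdipoΔ/Δ cells with Mmp12 at 3000 UMIs, 14 had Cd63 and 15 had Cd9, against 8 and 18 of the 113 cells without it. Plin2 was found in 63.6% and 39.8%, and the mean Lpl count was 13.6 and 5.92 UMIs. Retnla ran the other way, at a mean of 25.8 UMIs in cells with Mmp12 and 46.7 in those without, and Mrc1 was found in 30.3% and 56.6%. These are counts over cells of 1 library, which are not replicates.

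**Figure D4:**
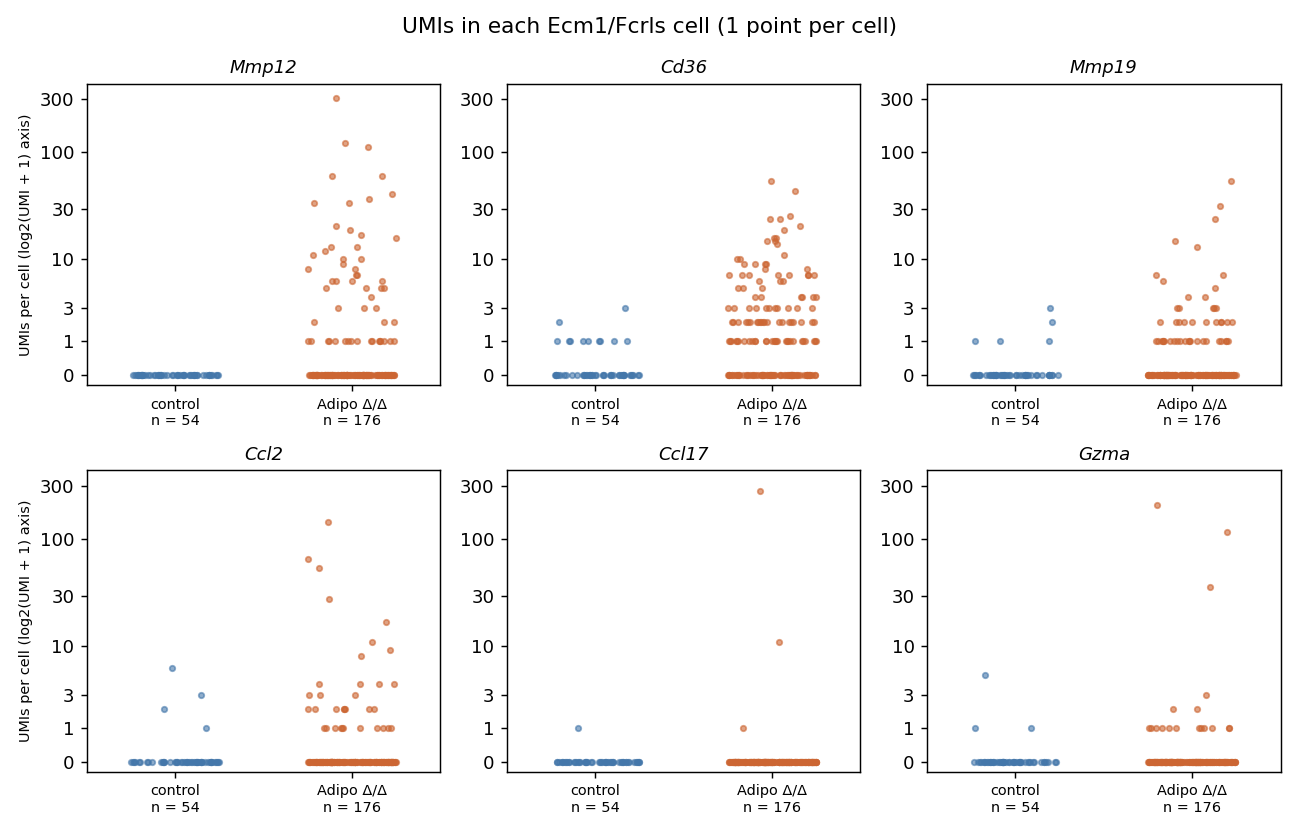
UMIs of 6 genes in each Ecm1/Fcrls cell (1 point per cell, shifted sideways at random) of the control library (n = 54) and the AdipoΔ/Δ library (n = 176), on a log2(UMI + 1) axis. Mmp12, Cd36 and Mmp19 are spread over 56, 102 and 49 AdipoΔ/Δ cells, whereas 1 cell holds 272 of 284 Ccl17 UMIs and 3 cells hold most of the Gzma UMIs.

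Of 14 chemokine genes past the minimum, 10 were at least 2-fold higher in AdipoΔ/Δ and 0 were lower, with a median log2 ratio of 2.15, but several rested on single cells. Ccl17, a ligand of CCR4, had 1 UMI in control and 284 in AdipoΔ/Δ, 272 of them in 1 cell that also held 64 of the 86 UMIs of Ccl22 and 0 of Retnla. Ccl4 had 3 and 277 UMIs, of which 2 AdipoΔ/Δ cells held 133 and 122. Ppbp, a platelet chemokine, had its 49 UMIs in 1 cell. Ccl2, which draws CCR2+ monocytes, was spread more widely, in 4 of 54 and 34 of 176 cells, at 33.8 and 253 CPM, a ratio of 7.49 (4.24 to 14.6), although 3 cells held 143, 66 and 54 of its 388 UMIs. Ccl24, an eosinophil attractant of alternatively activated macrophages, was in 6 and 52 cells at 36.6 and 214 CPM, a ratio of 5.84 (3.37 to 11.1).

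Chemokines of high level differed less. Ccl6 was at 1992 and 2652 CPM and Ccl9 at 1134 and 1743, with ratios of 1.33 and 1.54. Of 10 chemokine and chemoattractant receptors, 0 were higher and 1, Fpr2, was lower.

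Of 8 cytokines, 4 were higher and 0 lower. Il1rn, the antagonist of the interleukin 1 receptor, was in 4 and 35 cells with 5 and 222 UMIs, a ratio of 10.3 (4.34 to 32.0), and Il1b, the inflammatory cytokine, in 3 and 24 cells with 3 and 146 UMIs. One AdipoΔ/Δ cell of 24209 UMIs held 75 of the Il1b, 53 of the Il1rn, 143 of the Ccl2 and 133 of the Ccl4 UMIs. Clic4, an intracellular chloride channel protein, and Rgs1, a regulator of G protein signalling, had ratios of 11.6 (3.89 to 56.8) and 11.1 (3.73 to 54.5), and Clic4 was spread over 73 of 176 cells. Basp1, a membrane-associated signalling protein, had 0 and 101 UMIs, at least 7.80-fold higher with control set at 3 UMIs and with an exact lower limit of 6.23. Of 17 early response and heat shock genes that tissue digestion can induce, 5 were higher and 0 lower, with a median of 0.68, and their part in these values was not tested.

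Alternative activation genes, here those linked to interleukin 4, were 4 higher and 2 lower of 15, with a median of 0.51. Ccl24, Ccl17, Igf1 and Socs3 were higher, and Cd163 and Cd209a were lower. Mrc1 had a ratio of 1.01 (0.822 to 1.25), and Ear2, a ribonuclease of myeloid cells, was at 490 and 708 CPM, though 123 of the last 500 windows of its transcript occur in Ear1. Of 13 MHC class II and antigen presentation genes, 0 were past 2-fold in either direction, with Cd74 at 9740 and 13177 CPM and H2-Aa at 5872 and 6035. The same was true of 6 Fc receptor genes, and of 6 Ms4a genes 1, Ms4a4c, was lower. Of 28 transcription factors 4 were higher and 3 lower, against 10.7% and 2.38% of all genes, with a median of 0.04. Among those higher was Maf, a factor of mature macrophages, at 28.1 and 95.8 CPM (ratio 3.40, 1.80 to 7.25). Irf8, Nr4a1 and Nr1h3 were on the lower side. Spi1, which encodes PU.1, was at 388 and 384 CPM. Csf2rb, the shared chain of the GM-CSF receptor, was at 50.6 and 125 CPM, the 1 gene of 5 growth factor receptors past 2-fold.

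Of 19 macrophage identity genes, 4 were higher and 1 lower, against 10.7% and 2.38% of all genes, with a median of 0.41. Those higher were Maf, Cd14, Cd63 and Lgmn, of which Cd14, a lipopolysaccharide co-receptor, was in 11 of 54 and 57 of 176 cells at 30.9 and 86.0 CPM. Of 7 resident macrophage genes 1 was higher and 2 lower, and of 11 complement genes 0 and 2. Of 9 iron handling genes 4 were higher and 1 lower, including Slc11a1 and Blvra. Among 10 growth factor genes 2 were higher, among 8 efferocytosis genes Cd36 alone, among 16 interferon-stimulated genes 3, and among 3 lysozymes and resistin-like genes 0.

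Cell cycle genes were at least 2-fold higher in 10 of 15 cases, with a median log2 ratio of 1.80. Mki67, a protein of dividing cells, had 1 UMI in control and 92 in 17 AdipoΔ/Δ cells, and Top2a, which untangles DNA in division, 0 and 55 UMIs in 16 cells. Stmn1, a regulator of microtubules, had 4 and 146 UMIs. In single cells the sum over 20 such genes ran from 0 to 11 UMIs in control (median 1.00) and from 0 to 212 in AdipoΔ/Δ (median 2.00). At least 5 of them were found in 10 of 54 cells, 18.5% (9.25 to 31.4), and 43 of 176, 24.4% (18.3 to 31.5), intervals that overlap. The median log2 ratio of the list was 0.82 when cells were thinned to 3000 UMIs.

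Some of the genes lower in AdipoΔ/Δ, namely Plac8, Itgal and Hp, were highest in the control cells with the fewest UMIs of Ecm1, Fcrls and Cd226. Depth rose with this sum, so its ranges are also ranges of depth. At sums of 2, 3 to 5, 6 to 11 and 12 or more, the median control cell held 3334, 3819, 5022 and 11090 UMIs. In AdipoΔ/Δ these medians were 3410.5, 4019.5, 6072.5 and 12391. Plac8, a monocyte gene, was at 636 CPM in control and 239 in AdipoΔ/Δ, a ratio of 0.375 (0.317 to 0.445). In the 14 control cells with a sum of 2 it was at 2455 CPM, in the 18 cells with 3 to 5 at 256, in the 9 with 6 to 11 at 0 and in the 13 with 12 or more at 14.9. In AdipoΔ/Δ the 28, 40, 42 and 66 cells of the same ranges stood at 305, 198, 173 and 261. Itgal, an integrin of leukocytes, showed the same order in control, with 669 CPM at a sum of 2 and 81.5 at 3 to 5, and Hp, haptoglobin, 353 and 233 and then 0. The 3 control cells highest in Plac8 held 85, 58 and 33 of its 226 UMIs, each with a sum of 2 and at most 1 Retnla UMI. In AdipoΔ/Δ the highest cells held 112 and 108 of 366, with sums of 22 and 61, and were of 33313 and 41603 UMIs. Of the Ecm1/Fcrls cells with over 20000 UMIs, 11 were in AdipoΔ/Δ and 0 in control. With a sum of at least 6 the log2 ratio of Plac8 was 4.47 and that of Itgal 1.38, so the sign turned. These ratios rest on few control UMIs. The control cells at 6 to 11 and at 12 or more held 0 and 2 UMIs of Plac8 and 0 and 3 of Itgal.

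Cd209a did not show this order, at 72.9, 291, 113 and 14.9 CPM over the 4 ranges in control. Over 16 classical monocyte genes, 0 were higher and 5 lower, with a median of −0.56, and the median was 0.25 at a sum of at least 3 and 0.78 at a sum of at least 6. Gngt2, Nr4a1, Plek and Irf8 had ratios of 0.343 to 0.484 in all cells and log2 ratios of 1.82, 1.98, 1.13 and 2.75 at a sum of at least 6, and 24 of the 34 control UMIs of Irf8 were in 1 cell. Apoe, Cd209a, S100a9, Lars2, Chic2 and Trps1 kept a negative log2 ratio at that sum, while Prdx5 (0.058) and Msrb1 (0.40) did not. Of these, Lars2 and S100a9 were also lower in the Ly6C high monocytes of AdipoΔ/Δ, at 0.408 (0.383 to 0.434) and 0.401 (0.276 to 0.568). That set was itself limited on S100a8 and S100a9, so its S100a9 ratio is conditioned by the choice. Neither gene was lower in myeloid cells alone. Lars2 went from 3757 CPM in all kept control cells to 1623 in AdipoΔ/Δ. At 3000 UMIs, S100a9 was in 25.6% and 10.2% of lymphoid cells, against 39.5% and 15.8% of the Ecm1/Fcrls cells.

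Of the genes higher in AdipoΔ/Δ, Cd36 and Mmp12 were higher there in each range of the sum. Cd36 was at 72.9, 46.6, 18.8 and 22.4 CPM over the 4 ranges in control and at 368, 484, 287 and 399 in AdipoΔ/Δ, and its log2 ratio was 4.11 at a sum of at least 6. The control cells at 6 to 11 and at 12 or more held only 1 and 3 Cd36 UMIs. Mmp12 was at 0 in each control range and at 191, 906, 318 and 866 in AdipoΔ/Δ. Retnla was lowest at a sum of 2 in both libraries, at 2164 and 3090 CPM, and was between 10202 and 15448 CPM in every other range. Lyz1 went from 486 to 3968 CPM in control and from 794 to 2579 in AdipoΔ/Δ, and its log2 ratio was −0.45 at a sum of at least 6 against 0.16 in all cells.

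**Figure D5:**
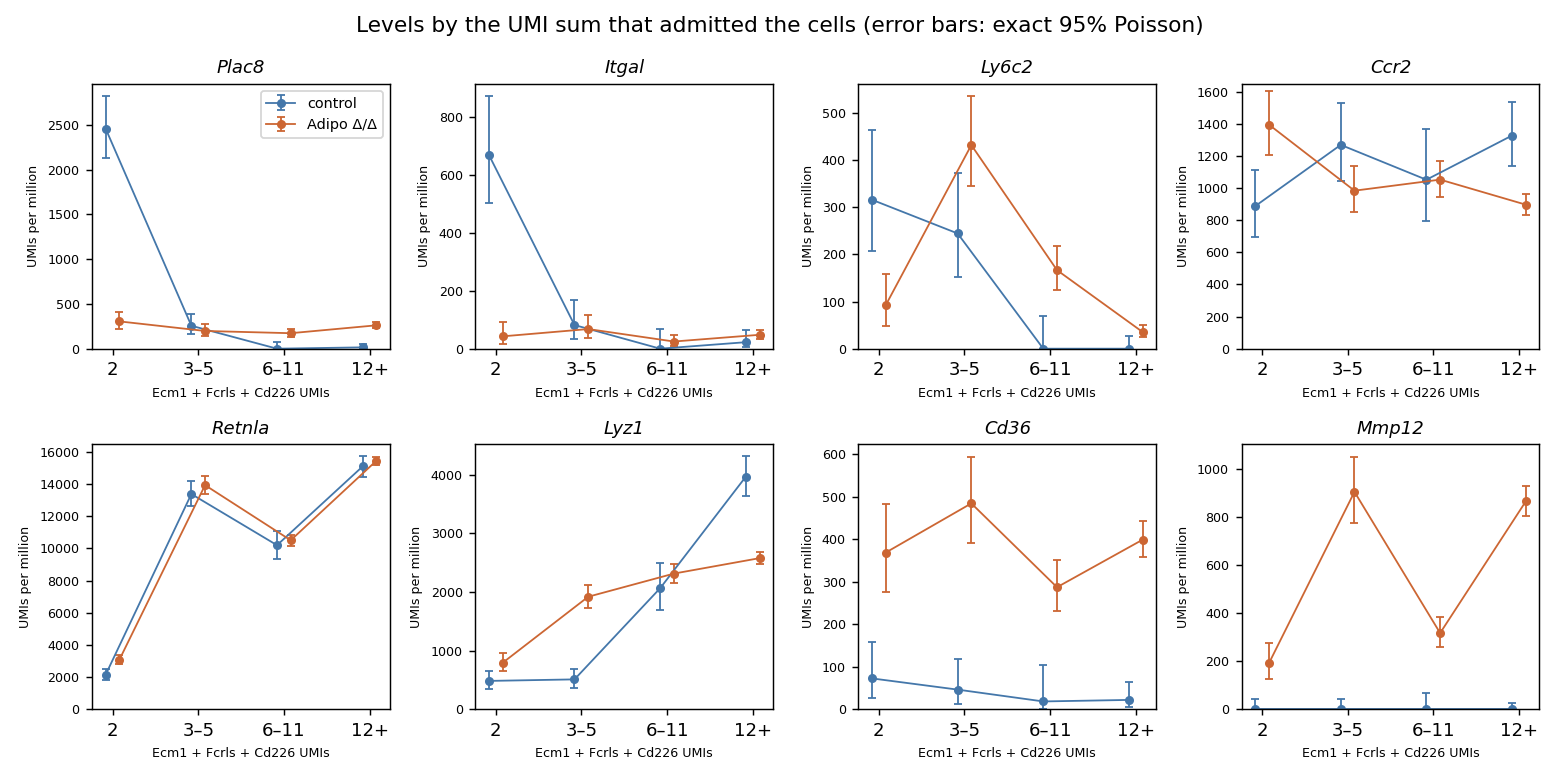
Levels of 8 genes (y axis, CPM, each panel starting at 0) in Ecm1/Fcrls cells grouped by their UMIs of Ecm1, Fcrls and Cd226 together (x axis: 2, 3 to 5, 6 to 11, 12 or more) for control (14, 18, 9 and 13 cells) and AdipoΔ/Δ (28, 40, 42 and 66 cells). Error bars are exact 95% Poisson intervals. The groups also differ in depth, with more UMIs per cell at higher sums. Plac8 and Itgal are high in the control cells with a sum of 2 and low in all others, whereas Cd36 and Mmp12 are higher in AdipoΔ/Δ in every group.

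Markers of other cell types were examined beside these values. Of 10 NK cell markers, 9 passed the minimum and 6 were higher, with 47 UMIs in control and 750 in AdipoΔ/Δ, or 132 and 489 CPM. Single cells held 0 to 20 and 0 to 358 of them, with a median of 0 in each library. Gzma, a cytotoxic granule protease of NK cells, had 7 and 373 UMIs, and 203, 115 and 36 of the latter were in 3 cells with 358, 273 and 62 NK marker UMIs. There were 3 cells with at least 5 such UMIs in each library, and without them the ratio of the shares was 3.83 and the log2 ratio of Gzma 1.13 in place of 3.63. Cd36 and Il1rn then had log2 ratios of 3.26 and 3.36. Mmp12, and then Cd63 as well, had 0 control UMIs. Cxcr2 and Cd4 had 0 UMIs in these cells of both libraries. Of 10 neutrophil markers, 3 passed and 2 were lower, S100a8 and S100a9, with sums of 0 to 17 and 0 to 7 UMIs per cell and medians of 1.00, and their part in these values was not tested. Of T cell, B cell, dendritic cell, adipocyte and stromal markers, 1 or 2 passed the minimum in each list. Ighm, an immunoglobulin chain, was at 76.0 and 109 CPM, and Il7r, the one T cell marker that passed, at 11.3 and 36.5. None of the haemoglobin or mast cell markers passed, and these lists summed to 13 and 13 UMIs and to 1 and 3.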

How the data were processed

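Both 10x libraries were deposited as filtered matrices of UMI counts per gene and cell, which the authors made with Cell Ranger 4.0.0 against mm10, the same build as GRCm38, according to the submitters' processing notes. The deposited counts are raw, and all values were computed from them with Python 3.11.15 and SciPy 1.17.1. Cells with fewer than 200 genes or over 10% mitochondrial UMIs were left out. Levels are summed counts scaled to CPM, with exact intervals. The counts per library and kept cell (median 3678 and 3942) limit the precision. Scrublet (Scanpy 1.11.5) marked 8 cells in each library (0.351% and 0.397%), too few to have worked, so doublets were in effect left in, and 0 and 1 of the cells described were marked. Genes named were those of the rule and of 38 lists, 9 of them for other cell types, and the 15 with the largest ratios on each side among genes with at least 100 UMIs, without ribosomal, mitochondrial, Gm and Rik names. The rule, the lists and these choices were made with earlier results of these data known. With 1 library per condition nothing was tested. Alternatives changed the limits of the rule, the scaling, the depth and the minimum count. For shares of cells with a UMI, cells were also thinned to 3000 UMIs. The ratio script was tested on simulated data.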

Additional observations from a re-analysis of the deposited data

Results flagged for a closer look

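Cd209a, a lectin gene of dendritic cells and some monocytes, moved in opposite directions in neighbouring cells. In the Ecm1/Fcrls cells it was at 110 CPM in control and 41.7 in AdipoΔ/Δ, with 39 and 64 UMIs in 9 and 20 cells, a ratio of 0.380 (0.251 to 0.581). In Ly6C high monocytes it was at 25.5 and 59.3 CPM, with 54 and 56 UMIs, a ratio of 2.33 (1.57 to 3.45). The difference between these ratios was not tested, since each rests on 1 library per condition. In control, 12 and 11 of the 39 UMIs were in 2 cells with sums of Ecm1, Fcrls and Cd226 of 4 each.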

How the results depend on the processing

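No paired analysis was possible because each condition had 1 library, and no library could be left out. The ratio of the shares of Ecm1/Fcrls cells stayed between 3.09 (at least 1 UMI of Ecm1, Fcrls and Cd226) and 4.18 (at least 3) under the other alternatives and was 5.55 at a sum of at least 6, a setting chosen after seeing the data. Of 764 genes higher and 170 lower in AdipoΔ/Δ, 391 and 97 were left of 3538 genes at 3000 UMIs per cell, and 261 and 43 of 4406 with at least 50 UMIs, fewer genes being tested in both. With every gene that had at least 1 UMI, 1102 of 12747 were lower and 1111 higher, and 281 were lower under median-of-ratios scaling. Leaving out the highest cell of each gene gave 1165 and 70 of 6635, and it removes 1 of 54 control but 1 of 176 AdipoΔ/Δ cells, which raises ratios by construction (median log2 0.36). The 252 genes higher than the other myeloid sets were 136 of 5050 with at least 50 UMIs and 143 of 4445 at 3000 UMIs. Log2 ratios turned positive at a sum of at least 3 for Itgal (0.30), Gngt2 (0.41), Plac8 (1.40), Nr4a1 (1.42), Plek (0.038) and Irf8 (1.53), and at a sum of at least 6 for Itgal (1.38), Gngt2 (1.82), Hp (1.23), Plac8 (4.47), Nr4a1 (1.98), Plek (1.13), Prdx5 (0.058), Msrb1 (0.40) and Irf8 (2.75). With Gpnmb and Trem2 at 0 they did so for Hp (0.64) and Nr4a1 (0.59), and without the highest cell for Irf8 (0.52). At a sum of at least 6, Hp had 0 control UMIs, so its value takes control at 3 UMIs, and Plac8 and Itgal had few. The cause of these turns was not tested. Of the other values of single genes, 675 stayed within their counting interval and 114 moved outside it, and of list medians 450 stayed and 15 moved. Depth limits control most, where 3 UMIs equal 8.44 CPM, so a gene below that is not measured.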

Other observations

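The genes given here were picked after their values were seen. Batf3, a transcription factor of dendritic cell development, was at 180 CPM in control and 183 in AdipoΔ/Δ, in 30 and 107 cells, while Xcr1 and Clec9a had 4 and 0 and 4 and 1 UMIs. Csf2ra, the GM-CSF receptor chain, was at 335 and 356 CPM against 159 and 192 in Ly6C high monocytes. Rarg and Rara, receptors for retinoic acid, were at 47.8 and 58.0 and at 87.2 and 56.0 CPM. Pparg, a lipid-sensing receptor, had 2 and 33 UMIs, a ratio of 3.82 (0.977 to 32.9), with its 33 UMIs in 29 of 176 cells and at most 2 in any of them. Clec1b, the podoplanin receptor, had 0 UMIs in these cells of both libraries. Cbr2 and Folr2 of resident macrophages had 1 and 9 and 1 and 6 UMIs, the latter held down by the rule.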
